A study of Homo sapiens with 34 samples.

Results

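The genes of the AP-1 transcription factor and of the immediate early response described here were FOS, FOSB, FOSL1, FOSL2, JUN, JUNB, JUND, ATF3, EGR1 and IER2, taken by symbol as 10 of the 20255 genes in the expression table, and all 10 passed the filter on low values. They were followed through 34 RNA-seq samples of the H1 line, established from human embryonic stem cells, during haematopoietic differentiation without added blood cytokines. The samples formed 12 populations, each with 3 replicates except the undifferentiated cells with 1. The unsorted populations (10 samples) were undifferentiated cells with no treatment, embryoid bodies (EBs) on day 0 labelled BMP4+hVEGF, and total differentiating cells on days 2 and 4 labelled hVEGF. The sorted populations (24 samples), also labelled hVEGF, were CD43- and CD43+ cells on days 6, 9 and 12, and on day 16 CD43-CD45- and CD43+/CD45+ cells, called CD43- and CD43+ here. CD43 is a surface glycoprotein of blood cells. All samples came from a single line. Per the methods, replicates were independent biological ones.

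Immediate early genes are transcribed within minutes of a growth factor, cytokine, adhesion or stress signal, without new protein synthesis. FOS and JUN family proteins pair through leucine zippers into the transcription factor AP-1, ATF3 can join such pairs, EGR1 is a zinc finger transcription factor induced by the same signals, and IER2 is a short-lived nuclear protein of the same early response. In blood development AP-1 and EGR proteins are known for roles in the monocyte and macrophage lineage, and dissociating tissue with enzymes is known to induce these genes.

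The deposited values were GC-normalized read counts rounded to whole numbers, called normalized counts below. Sorted by size they were identical in all 34 samples (sum 17856940, median 197, highest value 90700, held by 10 genes in each sample), so a value stands close to a rank among genes of similar GC content, and differences at the top of the scale are compressed. FOS stood at 90700 in 5 samples and no other member did. The depth behind each value is unknown, and levels are compared between samples for a gene and not between genes. Counting strand is not stated, which matters for FOSB, JUNB, FOSL2 and IER2: their intervals overlap ERCC1, HOOK2, FLJ31356 and AC011446.2 on the opposite strand. In bulk samples of this kind, fewer cells of a type and less RNA per cell cannot be told apart.

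The 5 stretches below are shown because their genes gave the largest rises among the members (FOS, FOSB, JUNB), the serum-responsive promoter type (EGR1) or a course of their own (FOSL2). Each is the 150 bases before the RefSeq transcript start (build GRCh38.p14), 5′ to 3′ on the gene's strand. Capitals mark letters of the CArG box (the core of the serum response element), of the cAMP response element core TGACG or its reverse complement CGTCA, and of the TATA box TATAAA.
FOS, chr14:75278678-75278827, plus strand: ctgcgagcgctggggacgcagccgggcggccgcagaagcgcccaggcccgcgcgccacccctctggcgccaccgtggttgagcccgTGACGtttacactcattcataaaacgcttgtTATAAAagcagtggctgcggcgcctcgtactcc
FOSB, chr19:45467846-45467995, plus strand: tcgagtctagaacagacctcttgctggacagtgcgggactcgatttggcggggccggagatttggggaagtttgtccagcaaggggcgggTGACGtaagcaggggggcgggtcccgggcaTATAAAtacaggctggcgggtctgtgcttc
JUNB, chr19:12791336-12791485, plus strand: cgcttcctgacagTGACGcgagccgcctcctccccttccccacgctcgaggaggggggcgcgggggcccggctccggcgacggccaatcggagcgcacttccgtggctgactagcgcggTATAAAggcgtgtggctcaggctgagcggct
EGR1, chr5:138465329-138465478, plus strand: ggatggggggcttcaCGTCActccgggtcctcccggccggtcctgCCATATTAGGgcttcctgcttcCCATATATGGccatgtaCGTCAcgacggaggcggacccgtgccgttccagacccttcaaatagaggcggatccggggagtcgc
FOSL2, chr2:28392708-28392857, plus strand: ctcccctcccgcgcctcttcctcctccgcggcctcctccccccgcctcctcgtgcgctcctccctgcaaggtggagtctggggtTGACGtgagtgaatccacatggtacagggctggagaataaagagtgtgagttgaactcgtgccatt

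A promoter entry was found for 9 of the 10 members, not for FOSL1. In the 250 bases before the start, TGACG or CGTCA was present in 8 of 10 member windows (ATF3 has a pair of windows) and in 21.2% of all 35116 windows. TATAAA, read on the gene's strand, stood 33 bases upstream in FOS, 30 in FOSB and 31 in JUNB, was also found 230 bases upstream of an ATF3 start, and was present in 6.8% of all windows. Within these windows the CArG box was found in EGR1 only, 105 and 83 bases upstream, against 1.16% of all windows. Sequence farther than 250 bases upstream was not searched, so a CArG box of another member there would have been missed. The full palindrome TGACGTCA, which contains the core on both strands, was found in JUND only, 200 bases upstream, against 1.65% of all windows. The AP-1 site TGANTCA, a palindromic pattern, was in no member window and in 6.57% of all windows. These matches describe letters and were not tested as binding sites.

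Sorted cells were first set against unsorted cells, with each population counted once (8 against 4). The test treats these populations as independent and equal units. CD43- and CD43+ populations share their day, however, and the undifferentiated population is 1 sample, so its p-values are approximate. A gene was called different at a Benjamini-Hochberg adjusted p below 0.05 and a fold change above 4, in limma on log2(value + 1) over 19815 genes. Of the 10 members, 7 were called higher in sorted cells (FOS, FOSB, FOSL2, JUN, JUNB, JUND and EGR1), where 3.6% of all tested genes were, and 0 were called lower, where 5.31% were. The median log2 difference over the members was 3.05, against -0.02 over all tested genes. For FOS, FOSB, JUN, JUNB and JUND, 5 of the 10, all 24 sorted samples stood above all 10 unsorted samples, as did 1.82% of all tested genes. Sorted cells came from days 6 to 16 and unsorted cells from day 4 or earlier, so sorting and day cannot be told apart. Per the methods, sorted cells were detached with the enzyme mix TrypLE, kept in medium in an incubator, stained and sorted, and how the unsorted cells were harvested is not given in the sources used here.

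Among the FOS family, FOS (chr14:75278774-75282230) had normalized counts from 169 to 2487 in unsorted samples, with a median of 458.5, and from 7007 to 90700 in sorted samples, with a median of 18714. Its log2 difference was 5.15 (SE 0.64, adjusted p = 0.000824, limma). FOSB (chr19:45467995-45475179), a close relative of FOS, ranged from 9 to 506 (median 90) in unsorted and from 3940 to 37178 (median 11349) in sorted samples. The FOSB difference of 7.09 (SE 0.48, adjusted p = 3.91e-05, limma) was the largest of the 10 members, with a gap between the highest unsorted and the lowest sorted sample. FOSL2 (chr2:28392448-28417312), which encodes FRA2, had overlapping groups. It ranged from 142 to 4012 (median 210.5) in unsorted and from 838 to 11964 (median 4380) in sorted samples, and 14 of 24 sorted samples exceeded the highest unsorted one. Its log2 difference of 3.16 (SE 0.83, adjusted p = 0.0216, limma) was not called without the undifferentiated sample (2.74, adjusted p = 0.0802), with only CD43+ cells as sorted (2.34, adjusted p = 0.11) or without the day 12 populations (2.91, adjusted p = 0.0635). FOSL1 (chr11:65892049-65900573), which encodes FRA1, did not pass the test, with a log2 difference of 1.76 (SE 0.95, adjusted p = 0.204, limma), values from 4 to 236 in unsorted samples and values from 13 to 2477 in sorted ones.

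The JUN family had a narrower spread. JUN (chr1:58780788-58784327) ranged from 410 to 1547 (median 816.5) in unsorted and from 2758 to 22830 (median 8737.5) in sorted samples, a log2 difference of 3.56 (SE 0.46, adjusted p = 0.000936, limma). JUNB (chr19:12791496-12793315) ranged from 89 to 460 (median 322) and from 2674 to 37166 (median 8168.5), a difference of 4.91 (SE 0.50, adjusted p = 0.000458, limma). JUND (chr19:18279760-18281622), usually the more constantly expressed JUN protein, ranged from 633 to 1288 (median 852) and from 2804 to 13998 (median 6357), a difference of 2.79 (SE 0.29, adjusted p = 0.000527, limma). In none of the 3 genes did a sorted sample reach down to an unsorted one.

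The remaining genes separated the groups less sharply. EGR1 (chr5:138465490-138469315) ranged from 82 to 2370 (median 1029) in unsorted and from 1132 to 20412 (median 9018.5) in sorted samples. Its log2 difference was 2.93 (SE 0.78, adjusted p = 0.0228, limma), and it was not called with only CD43+ cells as sorted (2.15, adjusted p = 0.113). ATF3 (chr1:212565334-212620777), a stress-responsive member of the ATF/CREB family, differed by 2.39 (SE 0.83, adjusted p = 0.0607, limma), with 162 to 673 in unsorted and 236 to 15836 in sorted samples. ATF3 was called with only CD43- cells as sorted (3.47, adjusted p = 0.01). IER2 (chr19:13150415-13154908) stood already in unsorted samples at 1870 to 5308, and at 4148 to 22812 in sorted samples, and its difference of 1.18 (SE 0.35, adjusted p = 0.0371, limma) was below the fold threshold.

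**Figure D1:**
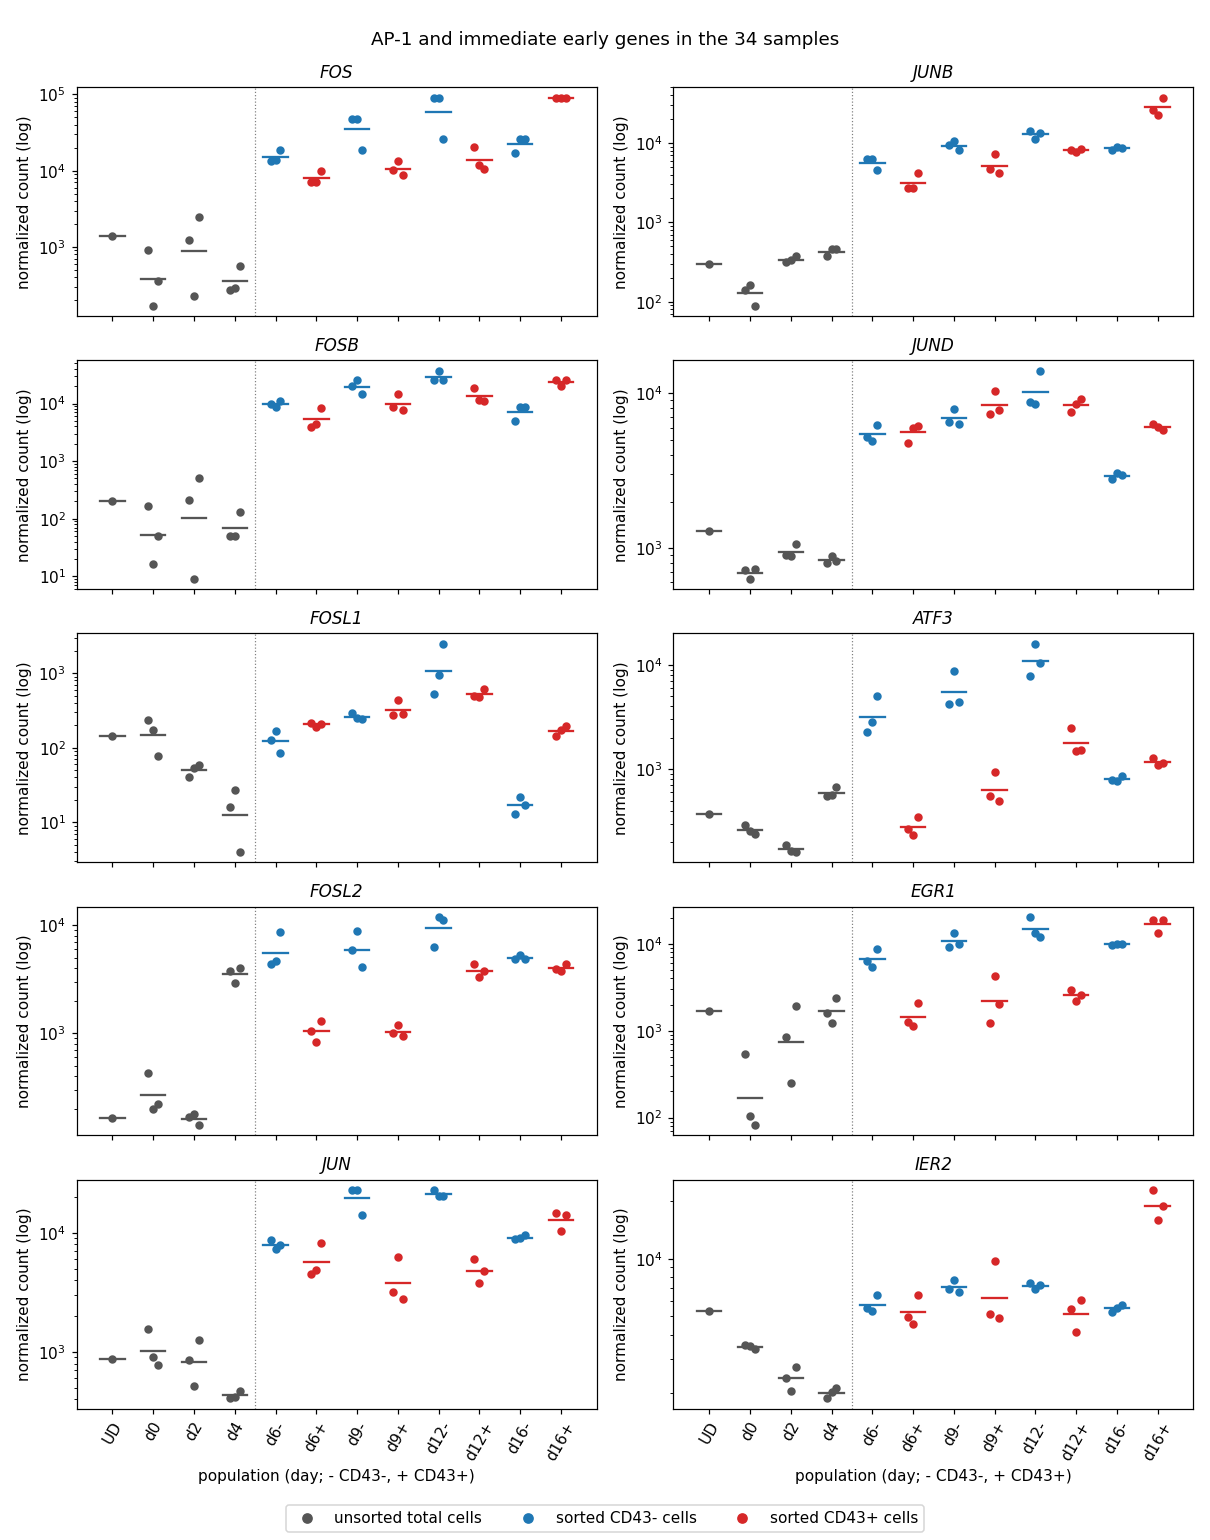
Normalized counts (log axes) of the 10 genes in 34 samples, by population. Points are samples and bars are means on the log2(value + 1) scale. Grey is unsorted, blue CD43- and red CD43+, and the dotted line divides unsorted from sorted populations. FOS, FOSB, JUN, JUNB and JUND show no overlap across that line, whereas FOSL2 is already high on day 4, from 2922 to 4012.

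Cell type markers were counted in the same comparison of sorted with unsorted cells, where 3.6% of all tested genes were called higher and 5.31% lower. All 5 pluripotent cell markers were called lower in sorted cells, with a summed level of 17370 to 90444 in unsorted and of 157 to 10240 in sorted samples. LIN28A held 9242 of that highest sorted sum, in a day 6 CD43- sample. Sums follow the highest genes of a list and do not measure the share of a cell type. Of the other lists, 3 of 5 endothelial, 2 of 5 erythroid, 1 of 6 blood cell, 1 of 6 macrophage and monocyte, 1 of 5 mesenchymal and 0 of 5 neutrophil and granulocyte markers were called higher. Among blood markers, PTPRC was listed at 0 in every sample on days 2 and 4, ELANE in the undifferentiated cells, on days 2, 4 and 6 and in day 9 CD43- cells, and C1QA in the undifferentiated cells, on days 4 and 6 and in day 9 CD43- cells. SOX2, a pluripotency factor, was listed at 0 in every day 16 CD43+ sample. The part of these markers in the result was not tested.

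The step between the last unsorted and the first sorted populations narrows the interval to days 4 and 6. In day 6 CD43- cells against day 4 cells, both labelled hVEGF, 8 of the 10 members were called higher (4.94% of all tested genes) and 0 lower (2.77%). In all 10 members the 3 day 6 CD43- values lay above the 3 day 4 values, as in 22.9% of all tested genes, and the members' median log2 difference was 2.96 against -0.08. FOS was 276, 292 and 557 on day 4 and 13287, 13963 and 18714 in CD43- cells on day 6 (log2 difference 5.41, SE 0.61, adjusted p = 8.54e-08, limma). FOSB was 50, 50 and 130 on day 4 and 9722, 8797 and 11194 on day 6 (7.14, SE 0.82, adjusted p = 1.38e-07, limma). The remaining called genes were JUN (4.20), JUNB (3.72), FOSL1 (3.21), JUND (2.70), ATF3 (2.42) and EGR1 (2.01). The EGR1 call sat at the fold threshold and was lost without day 4 replicate 1 (1.98), without day 4 replicate 2 (1.79) or without day 6 CD43- replicate 3 (1.82). IER2 (1.53, adjusted p = 2.70e-07) was below 4-fold, and FOSL2 (0.66, adjusted p = 0.0536) did not pass.

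In day 6 CD43+ cells against day 4, 6 members were called higher (6.79% of all tested genes) and 0 lower (7.72%). FOS was 7132, 7007 and 9860 (4.47, SE 0.61, adjusted p = 7.96e-07, limma) and FOSB was 3940, 4476 and 8504 (6.25, SE 0.82, adjusted p = 5.29e-07, limma). These 6 values were all well above the day 4 samples. FOSL1 (3.95), JUN (3.70), JUNB (2.86) and JUND (2.74) were also called. FOSL2 went the other way, from 3770, 2922 and 4012 on day 4 to 1044, 838 and 1314 (-1.75, SE 0.28, adjusted p = 7.72e-06, limma), and so did ATF3, from 554, 565 and 673 to 268, 236 and 350 (-1.08, SE 0.28, adjusted p = 0.00228, limma). Both fell by less than 4-fold, and IER2 rose by less than 4-fold (1.40, adjusted p = 5.32e-07, limma). EGR1, at 1253, 1132 and 2097, did not differ detectably from day 4 (-0.21, SE 0.56, adjusted p = 0.776, limma). In 7 members the 3 values lay above day 4 (34.3% of all tested genes) and in 2, FOSL2 and ATF3, below it (31% of all tested genes). These comparisons and those of CD43+ with CD43- cells share samples and are given side by side.

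**Figure D2:**
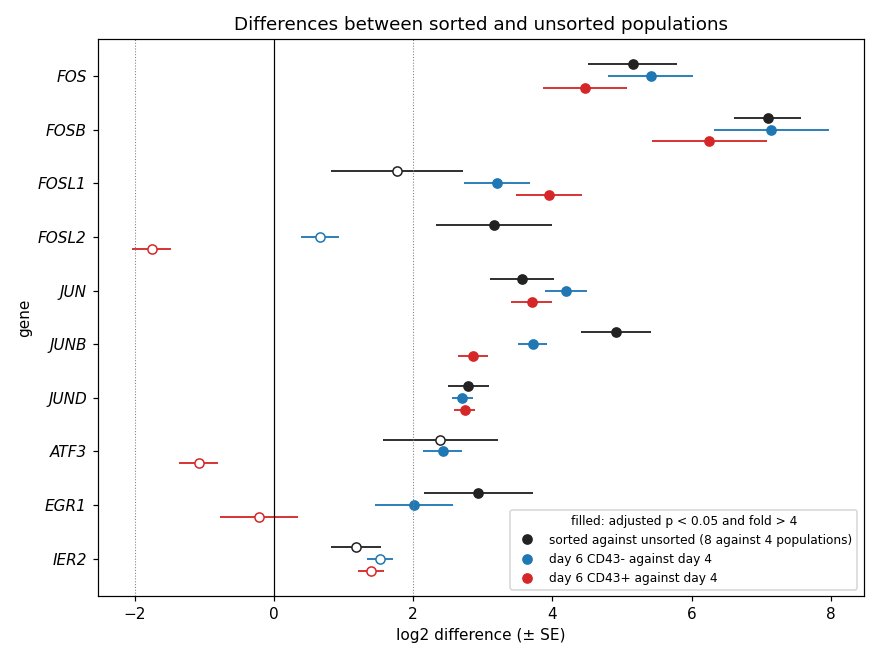
Log2 difference (x axis, ± SE) of each gene for sorted against unsorted populations (black) and for day 6 CD43- (blue) and day 6 CD43+ cells (red) against day 4. Filled points passed the test and dotted lines mark a 4-fold change. FOSB lies farthest to the right in each comparison, and FOSL2 and ATF3 lie left of 0 in day 6 CD43+ cells.

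The unsorted days held changes of their own. From day 0 to day 2, EGR1 alone was called higher, 1 member of 10 (4.4% of all tested genes), and 0 were called lower (3.5%). EGR1 was 542, 105 and 82 on day 0 and 840, 252 and 1904 on day 2 (2.14, SE 0.56, adjusted p = 0.00337, limma), so the groups overlapped. The call was lost without day 0 replicate 2 (1.80) or replicate 3 (1.63) or day 2 replicate 3 (1.45), and without day 2 replicate 2 the test called 3 members, with FOS (2.21) and FOSB (2.64) added. FOSL1 (-1.53), FOSL2 (-0.72) and IER2 (-0.55) fell by less than 4-fold in this step, and JUNB (1.41) and JUND (0.44) rose by less than 4-fold. FOS (1.23), FOSB (0.96), ATF3 (-0.60) and JUN (-0.31) did not pass, although the 3 ATF3 values on day 2 lay below those of day 0. From day 2 to day 4, FOSL2 was the single member called, higher (4.96% of all tested genes were, and 4.54% lower). It rose from 167, 178 and 142 to 3770, 2922 and 4012 (4.44, SE 0.28, adjusted p = 1.03e-12, limma), and the groups did not overlap. ATF3 rose by less than 4-fold in the same step, from 190, 165 and 162 to 554, 565 and 673 (1.79, adjusted p = 1.31e-05, limma), and FOSL1 (-1.95) and JUN (-0.93) fell by less than 4-fold. FOSL1 was called without day 2 replicate 1 (-2.09), day 4 replicate 1 (-2.12) or day 4 replicate 2 (-2.48), and FOS (-2.31) and FOSB (-2.23) were called without day 2 replicate 2. With all samples FOS (-1.32), FOSB (-0.55), EGR1 (1.17), JUNB (0.33), IER2 (-0.25) and JUND (-0.18) did not pass between days 2 and 4.

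Replicates of unsorted populations differed from each other more for some members than for most genes. The pooled SD within populations, on the log2 scale, was 2.01 for FOSB, 1.28 for FOS and 1.23 for EGR1 in unsorted samples, against a median of 0.20 over all tested genes. For JUND (0.11), IER2 (0.13) and ATF3 (0.14) it was below that median. In sorted samples the SDs of the members ran from 0.21 (JUND) to 0.54 (FOS), around the median of 0.35. FOSB stood at 0.40 and EGR1 at 0.44 there. The fit of 33 samples holds 1 residual variance per gene for unsorted and sorted samples. SEs of FOSB, FOS and EGR1 between sorted populations therefore include the wider unsorted spread, and those of JUND, IER2 and ATF3 a narrower one. The high values came together in single samples. On day 0, replicate 1 held the highest value for 8 of 10 members (28.3% of all tested genes), on day 2 replicate 3 for 8 (31.8%), and on day 4 replicate 3 for 7 (33.5%). FOS, FOSB, JUN, EGR1 and IER2 were highest in that sample on each of these 3 days. Among sorted cells, replicate 3 of day 6 CD43+ cells was highest for 9 members (31.1% of all tested genes), and replicate 2 of day 9 CD43+ cells for all 10 (32.6%).

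CD43+ cells were next set against CD43- cells of the same day, both of them sorted. A member that did not pass, such as FOSB, is not thereby shown to be equal, since its SE also holds the spread of unsorted replicates. The CD43- cells were not free of blood transcripts at all stages. The granulocyte marker MPO was at 0 in each day 6 CD43- sample and at 4657, 12840 and 8970 in the day 16 ones. On day 6, 3 of 10 members were called lower in CD43+ cells (7.84% of all tested genes) and 0 higher (4.68%). ATF3 was 268, 236 and 350 in CD43+ and 2262, 2860 and 5029 in CD43- cells (-3.50, SE 0.28, adjusted p = 1.22e-10, limma). FOSL2 was 1044, 838 and 1314 against 4354, 4640 and 8656 (-2.42, SE 0.28, adjusted p = 5.76e-08, limma), and EGR1 was 1253, 1132 and 2097 against 6364, 5406 and 8797 (-2.22, SE 0.56, adjusted p = 0.00156, limma). No CD43+ sample reached a CD43- sample in these 3 genes. JUNB was lower by less than 4-fold (-0.86), and FOS (-0.94), FOSB (-0.89), FOSL1 (0.74), JUN (-0.50), JUND (0.04) and IER2 (-0.13) did not pass. JUND turned to -0.13 when values were rescaled by the median of ratios.

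On day 9, 4 members were called lower in CD43+ cells (12.8% of all tested genes) and 0 higher (8.64%). JUN joined ATF3 (-3.09), FOSL2 (-2.52) and EGR1 (-2.28), with 3207, 6248 and 2758 in CD43+ and 22830, 22830 and 14009 in CD43- cells (-2.35, SE 0.30, adjusted p = 1.17e-07, limma). The EGR1 call was lost without day 9 CD43+ replicate 1 (-1.86), and FOS, lower by less than 4-fold (-1.73), was called without day 9 CD43- replicate 3 (-2.19). JUNB (-0.84) was also lower by less than 4-fold, and FOSB (-0.99), FOSL1 (0.30), JUND (0.28) and IER2 (-0.19) did not pass. On day 12, 4 members were again called lower (14.4% of all tested genes) and 0 higher (11.8%), namely ATF3 (-2.60), EGR1 (-2.54), JUN (-2.14) and FOS (-2.13). FOS was 20338, 11964 and 10397 in CD43+ and 90700, 90700 and 25776 in CD43- cells (SE 0.61, adjusted p = 0.00297, limma). In 2 of these CD43- samples FOS stood at the top of the scale, and the call was lost without CD43- replicate 1 or 2 (-1.83 each) or without CD43+ replicate 3 (-1.93). The JUN call was lost without CD43+ replicate 2 (-1.98). FOSL2 (-1.31), JUNB (-0.66) and IER2 (-0.49) were lower by less than 4-fold, and FOSB (-1.12), FOSL1 (-1.03) and JUND (-0.27) did not pass. In 8 members the 3 CD43+ values lay below the 3 CD43- values on day 12 (26.4% of all tested genes), in 6 on day 9 (28.7%) and in 6 on day 6 (22.9%). The reverse held in 0 members on days 9 (42.2%) and 12 (35.1%) and in FOSL1 on day 6 (33.8%). The day 12 CD43- samples were not alike in markers: the 6 macrophage and monocyte markers summed to 140 in the lowest and 4493 in the highest, against 54 to 62 on day 9. The part of these markers in the result was not tested.

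On day 16 the differences took the other sign in most members. Of 10 members, 2 were called higher in CD43+ cells (12.2% of all tested genes) and 0 lower (13.6%), and in 9 the 3 CD43+ values lay above the 3 CD43- values (40.3% of all tested genes), with FOSL2 below (32.7%). FOS was 90700 in all 3 CD43+ samples and 17284, 25776 and 25776 in CD43- cells (2.01, SE 0.61, adjusted p = 0.00487, limma). With the CD43+ samples at the top of the scale this call sat at the threshold, and it was lost under median-of-ratios scaling (1.99) and without CD43- replicate 1 (1.82). FOSL1 was 146, 171 and 198 against 13, 22 and 17 (3.25, SE 0.47, adjusted p = 9.48e-07, limma). IER2 was 22812, 15842 and 18751 against 5245, 5550 and 5698 (1.78, SE 0.18, adjusted p = 2.49e-09, limma), and JUNB was 25836, 22812 and 37166 against 8264, 8793 and 8673 (1.71, SE 0.21, adjusted p = 6.10e-08, limma). Neither these nor JUND (1.04, adjusted p = 8.56e-07) reached 4-fold, although no values overlapped. FOSB (1.72), EGR1 (0.75), ATF3 (0.53), JUN (0.51) and FOSL2 (-0.33) did not pass. On this day the gate also included CD45, unlike the earlier days.

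**Figure D3:**
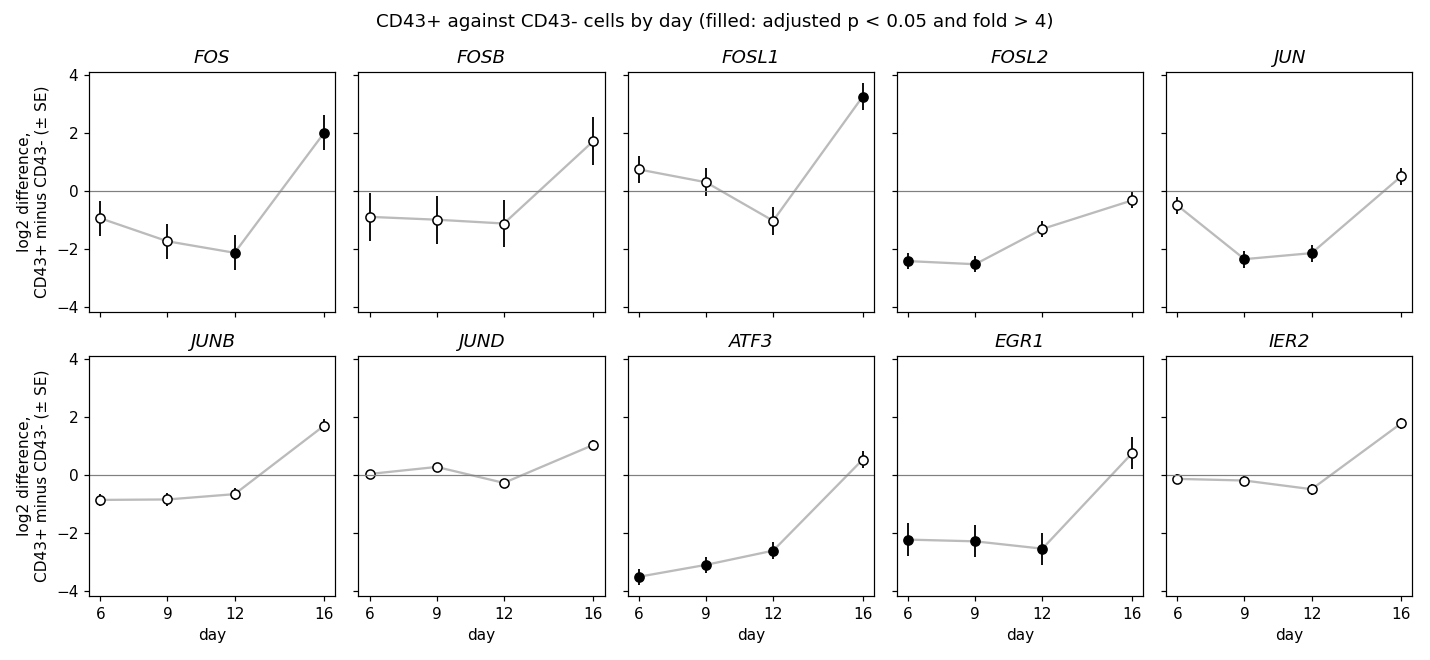
Log2 difference of CD43+ from CD43- cells (y axis, ± SE) on days 6, 9, 12 and 16 (x axis) for each gene, with filled points past the test. On day 12 all 10 differences were below 0 and on day 16 all but that of FOSL2 were above 0.

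How far the CD43 difference moved between days 12 and 16 was itself tested. The shift was called in the direction of CD43+ cells for 7 of 10 members (2.86% of all tested genes) and in the other direction for 0 (2.17%), with a median of 2.75 against -0.05 over all tested genes. The sizes were 4.28 for FOSL1, 4.14 for FOS, 3.28 for EGR1, 3.14 for ATF3, 2.65 for JUN, 2.36 for JUNB and 2.27 for IER2, with adjusted p from 1.23e-06 to 0.00474 (limma). JUND (1.31, adjusted p = 0.000122) changed by less than 4-fold, and FOSB (2.84, adjusted p = 0.0929) and FOSL2 (0.98, adjusted p = 0.0847) did not pass. FOSB was called with a pseudocount of 10 (adjusted p = 0.0436) and when only these populations were fitted (adjusted p = 0.00259). From day 6 to day 12, 0 members were called by limma in either direction (8.43% and 9.99% of all tested genes), and 4 had an unadjusted p below 0.05, as had 51% of all tested genes. At the fold change threshold of 2 there were 3 (31% of all tested genes), FOSL1 (-1.77), JUN (-1.65) and FOSL2 (1.11), and FOSL1 was called at 4-fold without day 12 CD43- replicate 1 (-2.28). The other 7 members had values from -1.19 (FOS) to 0.90 (ATF3) and did not pass.

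Both sides of the comparison moved between days 12 and 16. In CD43+ cells 2 members were called higher on day 16 (3.79% of all tested genes) and 0 lower (5.26%). FOS went from 20338, 11964 and 10397 to 90700 in each sample (2.73, SE 0.61, adjusted p = 0.000701, limma) and EGR1 from 2978, 2202 and 2554 to 18763, 13319 and 18763 (2.71, SE 0.56, adjusted p = 0.000319, limma). In both genes the days did not overlap. IER2 (1.87), JUNB (1.79) and JUN (1.42) rose by less than 4-fold, and FOSL1 (-1.62) and JUND (-0.47) fell by less than 4-fold. IER2 was called without day 16 CD43+ replicate 2 (2.0015), and FOSB (0.83), ATF3 (-0.61) and FOSL2 (0.07) did not pass. In CD43- cells 3 members were called lower on day 16 (5.98% of all tested genes) and 0 higher (4.46%). FOSL1 fell from 527, 940 and 2477 to 13, 22 and 17 (-5.90, SE 0.47, adjusted p = 2.92e-10, limma), and ATF3 from 7764, 15836 and 10423 to 788, 770 and 869 (-3.75, SE 0.28, adjusted p = 9.33e-11, limma). The FOSB fall, from 25856, 37178 and 25856 to 5038, 8678 and 8678 (-2.01, SE 0.82, adjusted p = 0.0478, limma), was not called in any fit that left out 1 sample of the days compared or with a pseudocount of 0.1. Its SE holds the wide FOSB spread of unsorted replicates (SD 2.01, against 0.40 in sorted samples) and not only that of these samples. JUND (-1.79), JUN (-1.22), FOSL2 (-0.91) and JUNB (-0.58) fell by less than 4-fold. FOS (-1.40, adjusted p = 0.0601) was called only without day 12 CD43- replicate 3 (-2.01), and EGR1 (-0.57) and IER2 (-0.40) did not pass.

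Earlier steps within sorted cells held few calls. In CD43- cells FOSL1 was called higher from day 9, at 295, 251 and 242, to day 12 (2.03, SE 0.47, adjusted p = 0.0015, limma), 1 of 10 members (4.53% of all tested genes higher, 2.8% lower). The call was lost without day 12 replicate 3 (1.42), the sample with the highest value, and without day 9 replicate 2 (1.9987) or 3 (1.97). ATF3 (0.99) and JUND (0.55) rose by less than 4-fold in this step, and the other 7 members, from 0.03 (IER2) to 0.77 (FOS), did not pass. From day 6 to day 9 in CD43- cells 0 members were called by limma (1.1% of all tested genes higher, 0.656% lower), with 5 at an unadjusted p below 0.05 (20.5% of all tested genes). JUN (1.29) and JUNB (0.72) rose by less than 4-fold, and the other 8, from 0.10 (FOSL2) to 1.21 (FOS), did not pass. In CD43+ cells 0 members were called by limma from day 6 to day 9 (3.56% higher, 3.97% lower) and 0 from day 9 to day 12 (8.44% higher, 6.55% lower), with 3 at an unadjusted p below 0.05 in each step, against 38.7% and 60.3% of all tested genes. ATF3 (1.18, then 1.48) and JUNB (0.73, then 0.64) rose by less than 4-fold in both steps, JUND (0.58) in the earlier and FOSL2 (1.88) in the later one. FOSL2 was called in the later step under median-of-ratios scaling (2.05). The remaining members did not pass, with values from -0.57 (JUN) to 0.91 (FOSB) in the earlier and from -0.27 (IER2) to 0.70 (FOSL1) in the later step.

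The summed macrophage and monocyte markers stood higher in CD43+ than in CD43- cells on day 12 already, and their CD43+ ranges on days 12 and 16 overlapped. On day 16 all 6 were called higher in CD43+ cells (12.2% of all tested genes), with a summed level of 58033 to 90334 in CD43+ and 165 to 343 in CD43- cells. On day 12 the sums were 18199 to 71113 and 140 to 4493. None of the 6 was at 0 in all samples of either day 16 population. The change of their CD43 difference was called higher for 5 of 6 (2.86% of all tested genes). That of the neutrophil and granulocyte markers was called lower for 5 of 5 (2.17%), and their sum in day 16 CD43- cells was 6132 to 20129, against 80 to 6316 on day 12. For the erythroid markers the change was called lower for 4 of 5 (2.17% of all tested genes), HBZ (-8.93), HBE1 (-5.76), ALAS2 (-4.74) and KLF1 (-3.28). ALAS2 and KLF1 were at 0 in every day 12 CD43- sample, so the sizes of their changes depend on the pseudocount. All 5 erythroid markers were called higher in CD43- cells on day 16 than on day 12 (4.46% of all tested genes), with a sum of 1526 to 3364 against 3 to 189. Of the other marker lists, the change was called lower for 1 of 5 pluripotent, higher for 1 and lower for 1 of 6 blood cell, higher for 1 of 5 endothelial and for 0 of 5 mesenchymal markers. The 5 mesenchymal markers were all called lower in CD43+ cells on day 16 (13.6% of all tested genes). Their sums were 233068 to 245542 in CD43- and 5401 to 12439 in CD43+ cells. COL1A1 and COL3A1 both stood at the top of the scale, 90700, in every day 16 CD43- sample, and make up most of that sum. The part of these markers in the result was not tested.

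Other genes of the same response were counted from lists beside the members. Over all tested genes, 3.6% were called higher in sorted than in unsorted cells and 5.31% lower. Of 14 other immediate early transcription factors, 11 were called higher and 0 lower, with a median log2 difference of 3.42. The largest were KLF2 (5.85), a Krüppel-like factor responsive to flow, EGR3 (5.78) and the orphan nuclear receptor NR4A3 (5.12), with adjusted p of 0.00158, 0.00178 and 0.0128 (limma). Of 21 other immediate early and feedback genes, 6 were called higher and 0 lower (median 1.59), led by the MAP kinase phosphatase DUSP1 (4.65), the mRNA decay factor ZFP36 (3.67) and BTG2 (3.29). Of 9 classical AP-1 target genes tested, 4 were called higher and 0 lower (median 1.60), among them the chemokine CXCL8 (5.35), the collagenase MMP1 (5.21) and the adhesion receptor CD44 (3.81).

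The genes that act before or beside AP-1 had smaller differences. Of 16 upstream kinases and SRF cofactors, 0 were called by limma in either direction (median -0.17), 7 had an unadjusted p below 0.05 (34.7% of all tested genes), and MAP2K7 (-0.47) and CREB1 (-0.72) passed the adjusted p alone. Of 10 other AP-1 dimer partners, 0 were called by limma (median 0.70), 2 had an unadjusted p below 0.05, and MAFK (1.25) passed the adjusted p alone. Of 13 heat shock and unfolded protein genes, 1 was called higher, DDIT3 (2.68), which encodes the stress factor CHOP, and 1 lower, the mitochondrial chaperone HSPD1 (-2.09), with a median of -0.18. HSPA1A (-0.01) and HSPA1B (-0.18), the inducible HSP70 genes, did not pass.

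**Figure D4:**
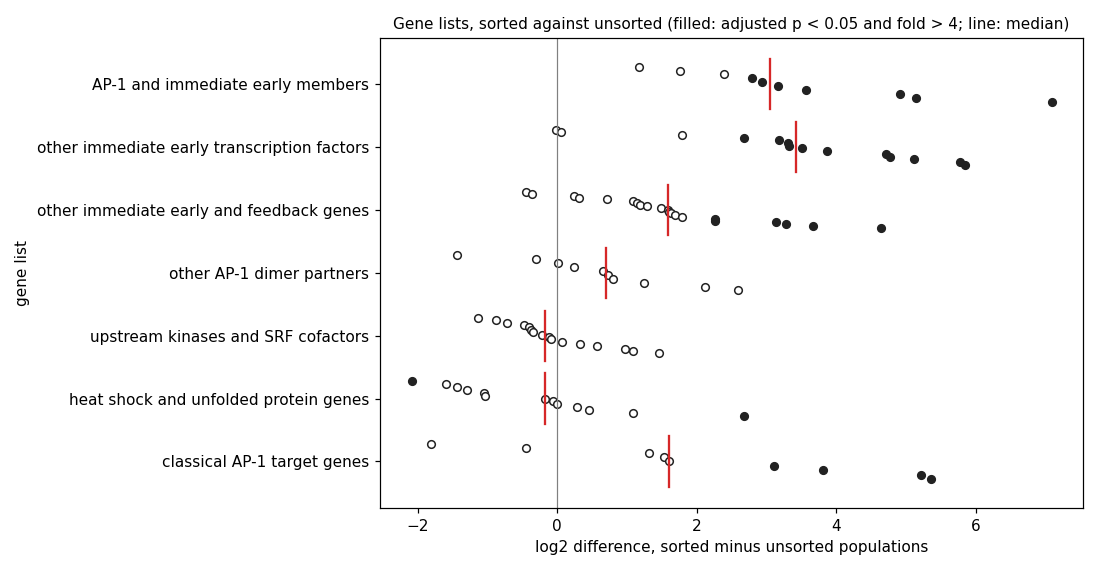
Log2 difference of sorted from unsorted populations (x axis) for each gene of 7 lists (rows). Each point is a gene, filled if past the test, and the red line is the list's median, which is 3.05 for the 10 members, 3.42 for the other immediate early transcription factors and -0.17 for upstream kinases and SRF cofactors.

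On day 6, against day 4, 11 of 14 other immediate early transcription factors were called higher in CD43- cells (4.94% of all tested genes). In CD43+ cells 8 of 14 were called higher (6.79%), and 0 were called lower in both (2.77% and 7.72%). Their median was 3.09 in CD43- cells (-0.08 over all tested genes) and 2.38 in CD43+ cells (0.03). NR4A3 (6.39), EGR2 (6.32) and EGR3 (6.10) led in CD43- cells, and EGR3 (5.72), NR4A2 (5.59) and NR4A3 (4.90) in CD43+ cells. On day 4 these genes were near the floor, with means of 2.67 (NR4A3), 3.33 (EGR2), 8.67 (NR4A2) and 14.3 (EGR3). The sizes and their order therefore depend on the pseudocount. The feedback genes were called higher in 8 of 21 cases in CD43- cells (4.94% of all tested genes), with the matricellular gene CTGF (4.72), DUSP1 (4.29) and CYR61 (2.98) in front. In CD43+ cells 3 of 21 were called higher (6.79%), DUSP1 (3.16), ZFP36 (2.39) and PPP1R15A (2.06). Between CD43+ and CD43- cells on day 16, 8 of 14 of these transcription factors were called higher (12.2% of all tested genes) and 0 lower (13.6%), with a median of 2.47. EGR2 (5.28), EGR3 (4.70) and NR4A2 (4.54) were in front. On day 12, 0 had been called higher (11.8% of all tested genes) and 3 lower (14.4%). Between days 12 and 16 their CD43 difference rose past the test in 12 of 14 cases (median 3.55), as in 2.86% of all tested genes. EGR4 (7.24), EGR2 (5.95) and EGR3 (5.84) were in front. EGR4 stood near the floor, with means of 2 in day 16 CD43- and 12 in day 12 CD43+ cells, so its size depends on the pseudocount. Among the dimer partners, BATF, a leucine zipper factor of blood cells, was called higher in CD43+ cells on days 6 (3.10), 9 (5.48), 12 (5.46) and 16 (4.89). Its day 6 values were low, 20, 6 and 12 in CD43+ and 2, 0 and 0 in CD43- cells. BATF2, of the same family, was called higher on day 16 (4.04). BATF3 went the other way on day 12, at 14, 12 and 14 in CD43+ and 54, 116 and 44 in CD43- cells.

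Over the means of the 12 populations, log2 levels of FOS followed those of FOSB (Pearson's r = 0.97), JUNB (0.97) and JUN (0.96). The lowest r among the pairs was 0.15, between FOSL1 and FOSL2. These 12 points share the division into sorted and unsorted cells, and r is given as a description. Of genes outside the 10, those most like FOS were CXCL2 (0.97), DUSP1 (0.97) and ZFP36 (0.96), those most like FOSB were CXCL2 (0.99), HECA (0.98) and IL3RA (0.98), and those most like JUNB were ZFP36 (0.98), CXCL2 (0.98) and SIL1 (0.97). JUN was most like ENSG00000198060, whose symbol the table gives as a date (0.96), DUSP1 (0.94) and HBEGF (0.94), and JUND like EGR3 (0.96), CSRNP1 (0.96) and HIVEP3 (0.96). FOSL2 was most like RGL1 (0.97), TNFAIP3 (0.97) and TMEM119 (0.97), FOSL1 like RP11-347C12.1 (0.96), CTRC (0.96) and RELB (0.91), and ATF3 like RCAN1 (0.92), ZNF106 (0.91) and RP11-366L20.2 (0.91). EGR1 was most like CPNE8 (0.93) and AC144831.1 (0.93), and IER2 like ZNF280D (0.91), MYH7B (0.90) and EGR2 (0.89).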

How the data were processed

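Total RNA of H1 cells was sequenced. Reads had been mapped to hg38 and quantified by the authors using bowtie2 and RSEM, who then normalized gene values for GC content within and between samples with EDASeq. The deposited values are whole numbers, treated as a normalized score and not as counts, so no count model was used and no depth is known. Beside them the authors deposited the GC content of every gene in percent, unused here. Of 20255 genes, 19815 reached 10 or more in 3 or more samples and were kept. Their log2(value + 1) entered limma (version 3.58.1 under R 4.3.3, linear fit and trended empirical Bayes step), p-values were Benjamini-Hochberg adjusted over all tested genes, and genes were called at an adjusted p below 0.05 and a fold change above 4. Fold changes on this scale understate those of low genes. Sorted and unsorted cells were compared over the means of 12 populations. All other comparisons used 1 fit of 33 samples, without the undifferentiated sample. Its residual variance, 1 per gene, was shared by unsorted and sorted samples. The fits were tested on simulated data in which each gene had the same spread in sorted and unsorted populations. Changes were planted only in genes away from the floor. That check does not cover unequal spread, low values or the top of the scale.

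The 10 genes and the other lists were chosen with earlier results of these data known. Members were given in every comparison, by value or, within sorted cells, partly by range. Of other lists, up to 3 called genes of largest change were named where a comparison of the list is described, and the 3 genes with the highest Pearson's r to each member. Some genes that this rule names are not reported here. Genes such as HSPA1A, and those that passed the adjusted p alone, were named after their values were seen. Whether replicate numbers pair samples was checked from the correlation of deviations from population means. Between CD43- and CD43+ cells it exceeded 0.1 in every pair on day 6 (0.110 to 0.198) and not in every pair on days 9, 12 and 16. Between day 9 and day 12 CD43- cells it ran from 0.0227 to 0.370, so the check left pairing by number undecided. The main fits used no pairing. RNA was sequenced by a pair of providers, not given per sample, so provider could not be separated from group. Promoter sequences are from RefSeq (GRCh38.p14). Gene coordinates are those of the deposited table and equal GENCODE v29 for all 10 members. Alternatives were pseudocounts of 0.1 and 10, other filters, median-of-ratios scaling, a fold change above 2, a replicate block, other sets of samples and leaving out each replicate.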

Additional observations from a re-analysis of the deposited data

Results flagged for a closer look

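The CD43 difference (CD43+ minus CD43-, log2 scale) changed between day 12 and day 16 for 7 of the 10 members, by limma's test of that change itself. Over all tested genes the change was called higher in 2.86% and lower in 2.17%. The change was 4.14 for FOS, 4.28 for FOSL1, 2.65 for JUN, 2.36 for JUNB, 3.14 for ATF3, 3.28 for EGR1 and 2.27 for IER2. The count was 7 in each of the 12 fits that left out 1 sample of these 2 days. For FOS the values on both days touch the top of the scale, 90700 in 2 day 12 CD43- samples and in 3 day 16 CD43+ samples. The gate on day 16 included CD45 and that on day 12 did not, so gate and day cannot be told apart.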

How the results depend on the processing

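The count of members called for sorted against unsorted cells was 7 without each replicate in turn. It was 9 in the 33-sample fit, with or without the replicate block, where FOSL1 (2.17) and ATF3 (2.47) were added. That fit takes its error from the spread within populations and counts replicates of a population as independent units. It therefore does not measure the spread between populations, as the main test does. The replicate block, a replicate term shared by all populations of the fit, left every other count of members as it was (3 for the CD43 comparison of day 6). It changed no other call. A fold change above 2 gave, with the share of all tested genes called at that threshold, 3 members from day 0 to 2 (18.7%), 3 from day 2 to 4 (19.5%), 5 for CD43 on day 16 (45.3%), 1, 2 and 6 for CD43+ cells from day 6 to 9, 9 to 12 and 12 to 16 (16.2%, 32.2% and 21.4%), 1 and 5 for CD43- cells from day 6 to 9 and 12 to 16 (3.77% and 24.1%), and 3 for the shift of the CD43 difference between days 6 and 12 (31%). Over all genes, 1767 were called for sorted against unsorted cells, against 1159 with a pseudocount of 10, 2975 at a fold change above 2, 2997 in the 33-sample fits, 1031 without the undifferentiated sample and 3207 with only CD43+ cells as sorted. A pseudocount of 0.1 gave 2 from day 2 to 4, and one of 10 gave 0 for CD43- cells from day 9 to 12. Median-of-ratios scaling gave 1 for CD43 on day 16 and 1 for CD43+ cells from day 9 to 12. Fitting only the populations compared gave 0 from day 0 to 2 and 0 for CD43- cells from day 9 to 12. Without 1 replicate, counts ran from 0 to 3 from day 0 to 2, 1 to 3 from day 2 to 4, 1 to 2 for CD43 on day 16, 0 to 1 for CD43- cells from day 9 to 12, and 0 to 1 for the change from day 6 to 12. In these cases the cause was not tested beyond what each alternative changes.

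Values that changed sign were all uncalled. Median-of-ratios scaling, which moved the median of all genes by -0.14 and -0.21 for CD43 on days 6 and 9 and by 0.15 for CD43+ cells from day 9 to 12, gave -0.13 for JUND on day 6. Without 1 replicate the ranges were -0.0304 to 0.15 for JUND in the CD43 comparison of day 6, -0.48 to 0.0433 for EGR1 in day 6 CD43+ cells against day 4, -0.19 to 2.64 for FOSB and -0.62 to 0.0272 for JUN from day 0 to 2, and -2.23 to 0.60 for FOSB from day 2 to 4. In CD43+ cells they were -0.17 to 0.15 for FOSL2 and -0.0702 to 0.42 for IER2 from day 6 to 9, -0.10 to 0.16 for JUND, -0.20 to 0.70 for EGR1 and -0.45 to 0.0446 for IER2 from day 9 to 12, and -0.0190 to 0.18 for FOSL2 from day 12 to 16. In CD43- cells they were -0.18 to 0.41 for FOSL2 from day 6 to 9, and -0.11 to 0.24 for JUN and -0.0186 to 0.0890 for IER2 from day 9 to 12. For the change from day 6 to 12, FOSB ranged from -0.47 to 0.11. Of the other values under settings that leave out no replicate, 1353 kept their direction and side of the threshold, 37 became called and 9 were no longer called. The top of the scale limits what can be seen of FOS, and low values limit FOSL1 on day 4 and in day 16 CD43- cells. Low values also limit genes of other lists, such as NR4A3 and MMP1 in unsorted cells. Leaving out the day 12 populations was chosen after seeing the data.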

Other observations

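Among the other immediate early and feedback genes, CTGF and CYR61, matricellular genes of adherent cells, were called lower in CD43+ cells on days 6 (-4.14 and -3.02), 9 (-6.08 and -5.17), 12 (-6.97 and -5.89) and 16 (-6.54 and -5.67) on the log2 scale (limma). Of the 21 genes of this list, 10 were called lower and 0 higher on day 9 (12.8% and 8.64% of all tested genes), 6 lower and 0 higher on day 12 (14.4% and 11.8%), and 3 lower and 7 higher on day 16 (13.6% and 12.2%). The shift of the CD43 difference between days 12 and 16 was called higher for 7 of 21 (2.86% of all tested genes), with TRIB1 (4.07), BTG2 (3.35) and SOCS3 (3.18) in front, and lower for 0.

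Among 9 classical AP-1 target genes tested, CXCL8, a neutrophil chemokine, and MMP1, an interstitial collagenase, went in opposite directions. MMP1 was called higher in day 6 CD43- cells than on day 4 (7.62) and lower in CD43+ than in CD43- cells on days 6 (-6.46), 9 (-4.73), 12 (-4.54) and 16 (-5.34). CXCL8 was called higher in CD43+ cells on days 9 (4.62), 12 (4.45) and 16 (7.44). Both genes were called higher in sorted than in unsorted cells. Of the 9, the test of the shift between days 12 and 16 called 0 (limma), and 6 had an unadjusted p below 0.05 (31% of all tested genes). The cyclin gene CCND1 was called lower in CD43+ cells on days 9 (-3.08) and 12 (-2.96).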
